A study of Rattus norvegicus with 2 samples.

Results

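The 37 genes described here make up the machinery that folds proteins in the endoplasmic reticulum (ER), the sensors and transcription factors of the unfolded protein response, and the targets of the transcription factor ATF4. They were taken from a list of symbols and matched to probe sets that carry a single gene symbol. Of the 37, 36 had such a probe set, among 14218 genes on the array, and Ern1 was not analysed here. All 36 were measured, meaning that the mean signal of both arrays reached 62.0, the 40th percentile of all signals. There were 10255 measured genes in all.

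The cells were astrocytes, supporting glia of the brain, grown from hippocampi of Sprague-Dawley rats at embryonic day 18, with the genotype given as normal. The control culture expressed IRES2-RFP, a red fluorescent protein from a vector with an internal ribosome entry site, and the 5ppase culture expressed 5ppase-IRES2-RFP, so both groups carried the fluorescent protein. Each group was 1 single-colour array of total RNA, and the series sets active calcium signalling (control) against none (5ppase). The labels do not spell out 5ppase, a name that commonly stands for an inositol phosphate 5-phosphatase, which inactivates the messenger that opens calcium channels of the ER. No source used here gives the promoter of the vector, the share of cells that carried it, or the number of animals behind a culture. With 1 array per group there was no replicate and no test, so every difference describes these arrays, and the number of arrays limits its precision.

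The ER takes in newly made secreted and membrane proteins, and its chaperones fold them with the help of calcium, which the same compartment stores for signalling. When unfolded proteins gather or the calcium store runs low, the sensors IRE1 (Ern1), PERK (Eif2ak3) and ATF6 start the unfolded protein response. ATF6 and the spliced form of XBP1 switch on chaperone and degradation genes. PERK slows translation by phosphorylating the initiation factor eIF2, which favours translation of ATF4, and ATF4 in turn switches on genes of amino acid supply and, under lasting stress, of cell death. Much of this control acts by cleavage, phosphorylation, splicing and translation, which a signal per probe set does not read.

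The DNA elements through which this response reaches its genes are shown first, because chaperone genes and ATF4 targets are known to be reached through different ones. In the RefSeq promoter table (GRCr8, 250 bases before and 50 after each start site) 31 of the 37 genes had an entry, and Atf6, Ern1, Pdia3, Pdia6, Manf and Ero1a did not. The ER stress element, searched on both strands as CCAAT and CCACG with any 9 bases between them, was found in 7 of these 31 promoters and in 22 of all 33469, or 0.0657%. By role it lay in 6 of 11 chaperone promoters and 1 of 4 sensor and transcription factor promoters, and in 0 of 10 promoters of ATF4 targets. In the stretches below it is in capitals, and it reads in reverse complement in Calr and Creld2.
Hspa5, chr3:38452958-38453006, plus strand: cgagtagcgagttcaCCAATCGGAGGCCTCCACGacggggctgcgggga
Hsp90b1, chr7:23012436-23012484, minus strand: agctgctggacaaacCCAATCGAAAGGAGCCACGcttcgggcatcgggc
Calr, chr19:40213120-40213168, plus strand: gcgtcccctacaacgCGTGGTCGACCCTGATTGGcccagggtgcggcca
Canx, chr10:35158054-35158102, minus strand: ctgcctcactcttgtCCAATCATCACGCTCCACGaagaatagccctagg
Dnajc3, chr15:102432519-102432567, plus strand: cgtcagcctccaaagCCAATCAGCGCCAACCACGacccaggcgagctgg
Creld2, chr7:121789224-121789272, plus strand: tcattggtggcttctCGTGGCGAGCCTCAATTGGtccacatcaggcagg
Xbp1, chr14:84604543-84604591, plus strand: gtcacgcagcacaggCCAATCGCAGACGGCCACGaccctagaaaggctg
Hsp90b1 held another copy, in reverse complement, nearer its start site. The related ER stress element II, searched on both strands as ATTGG and CCACG with any 1 base between them, was found in Dnajb11, Hyou1 and Herpud1, and in 17 of all promoters, or 0.0508%. In the Dnajb11 promoter it ran across the start site.

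The core of the amino acid response element, through which ATF4 acts, was searched as TGATGNAA on both strands. It was found in 3 of the 10 promoters of ATF4 targets, in that of Herpud1, and in 1332 of all promoters, or 3.98%. The matches, in capitals, all read in reverse complement.
Trib3, chr3:161275534-161275569, minus strand: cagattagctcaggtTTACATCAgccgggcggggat
Chac1, chr3:126795949-126795986, plus strand: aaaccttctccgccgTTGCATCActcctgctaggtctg
Nupr1, chr1:190645934-190645971, minus strand: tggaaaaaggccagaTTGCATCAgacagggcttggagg
Herpud1, chr19:10614869-10614906, minus strand: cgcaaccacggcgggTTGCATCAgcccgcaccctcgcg
A match is a description of these letters and not a binding site, and no match says only that the letters are not in this window. The unfolded protein response element, searched as TGACGTGG on both strands, was found in Hyou1, where it overlaps a copy of the ER stress element II, and in 0.595% of all promoters.

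Most of the 36 genes had nearly the same signal on both arrays. Only Sel1l and Sdf2l1 were at least 1.5-fold higher in 5ppase, 2 of 36 beside 7.48% of all measured genes, and 0 were that much lower, beside 6.87%. The share 1.5-fold apart was 14.4% over all measured genes and 6.84% over the 5441 measured genes that were bright, with a mean signal at or above the 75th percentile of all signals (533), as 34 of the 36 were. No member was 2-fold apart, beside 4.04% of measured genes. Pooled over all roles, 26 of 36 had a log2 ratio (5ppase over control, here and below) above 0. That share was 48.6% over all measured genes and 48.6% over the bright ones. The median log2 ratio of the 36 was 0.14, against -0.012 over all measured genes. This small lean lay mostly in the chaperone and degradation genes, of which 18 of 21 were above 0. Of the ATF4 targets 6 of 10 were above 0, and of the sensors and transcription factors 2 of 5.

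**Figure D1:**
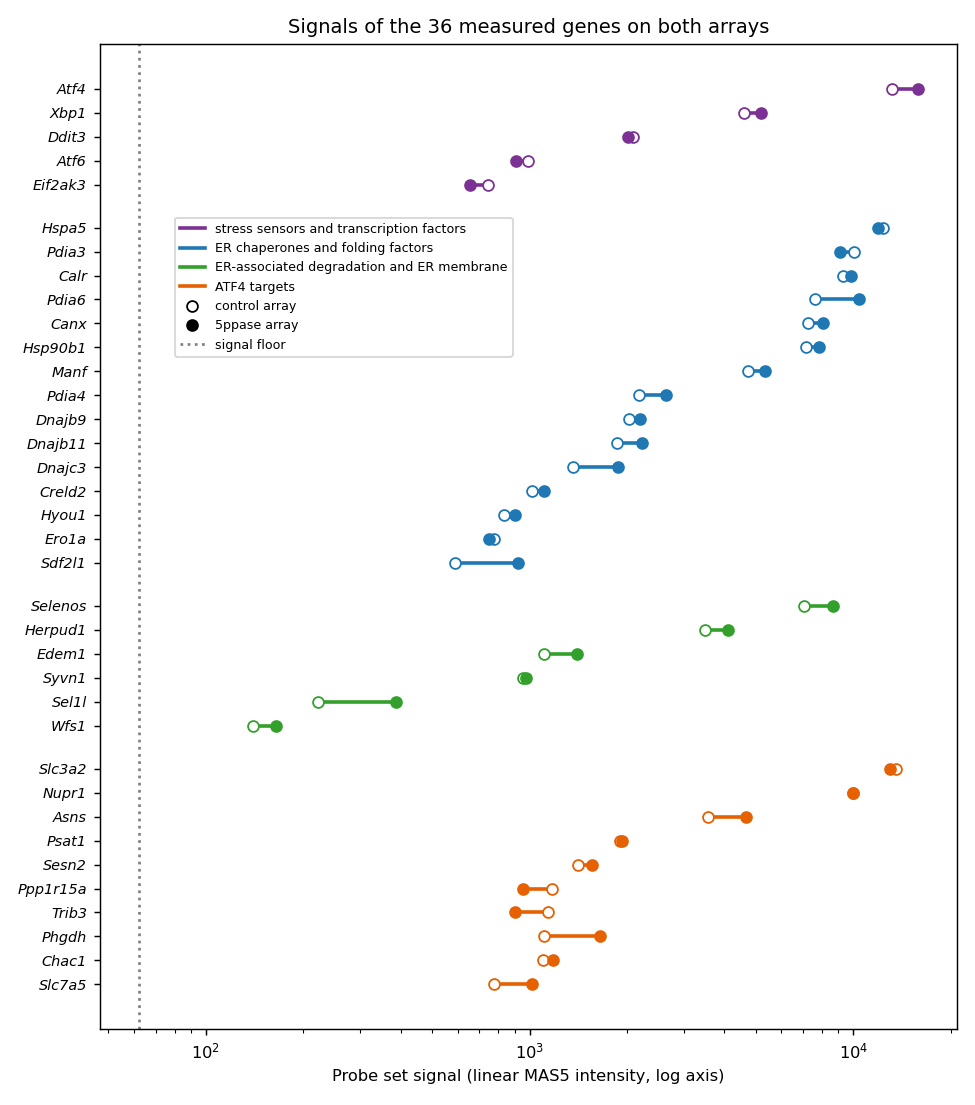
Signal of each of the 36 genes in control cells (open circles) and 5ppase cells (filled circles), on a log axis of linear intensity, coloured by role, with the signal floor of 62.0 as a dotted line. The gap between circles is widest for Sel1l (221 and 387), and levels of different genes come from different probes and cannot be set against each other.

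The only repeat inside an array is a second probe set of the same gene. Over 556 genes with exactly 2 measured probe sets, both of them bright, the log2 ratio had an SD per probe set of 0.19. That value is the SD of the difference within a pair, scaled down by the square root of 2. The difference itself was therefore spread more widely. Over all 2141 genes with exactly 2 measured probe sets the SD per probe set was 0.34. Such pairs share 1 culture per array, so this spread leaves out how cultures vary. The log2 ratios of 20 of the 36 genes were closer to 0 than 0.19, as were 54.5% of the bright measured genes.

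Among the stress sensors and transcription factors, 2 had a higher and 3 a lower signal in 5ppase, none by 1.5-fold. Atf4, the factor translated when eIF2 is phosphorylated, gave 13188 in control cells and 15897 in 5ppase cells (log2 ratio 0.27). Xbp1, whose message is spliced by IRE1, gave 4597 and 5193 (0.18), and the probe-to-gene table does not say which splice form its probe set reads. These 2 were the higher ones. Ddit3, the CHOP factor that PERK and ATF4 induce and that promotes cell death, gave 2082 and 2014 (-0.048). Atf6, the membrane-bound factor freed by cleavage, gave 991 and 908 (-0.12), and the PERK gene Eif2ak3 gave 742 and 655 (-0.18). The median of these 5 log2 ratios was -0.048, and each of the 3 lower ones lay within the probe set spread of 0.

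The general ER chaperones had small ratios at their brightest probe sets. Hspa5 (BiP), the Hsp70 of the ER lumen and the classical reporter of this response, gave 12381 in control cells and 11960 in 5ppase cells (log2 ratio -0.05). Hsp90b1 (GRP94), the Hsp90 of the ER, gave 7163 and 7855 (0.13), and Hyou1, an Hsp110-type exchange factor for BiP, gave 831 and 902 (0.12). Thus none of the 3 lay beyond the probe set spread, and the direction was not shared. The lectin chaperones of newly glycosylated proteins, both of which bind calcium, were close to equal: calreticulin (Calr) gave 9326 and 9854 (0.08), and calnexin (Canx) gave 7269.9 and 8084 (0.15).

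The J-domain partners of BiP and several small ER proteins were all higher in 5ppase, by different amounts. Dnajc3 (p58IPK), which also inhibits PERK, gave 1357 in control cells and 1873 in 5ppase cells (log2 ratio 0.46). Dnajb11 (ERdj3) gave 1864 and 2230.5 (0.26), and Dnajb9 (ERdj4) gave 2030.1 and 2191 (0.11). Sdf2l1, which binds ERdj3 and holds misfolded proteins soluble, gave 590.1 and 919.6 (0.64), a 1.56-fold difference and the widest of the 15 chaperones and folding factors. Of these 4, all but Dnajb9 lay beyond the probe set spread. Manf, a secreted trophic factor that also resides in the ER, gave 4727 and 5354 (0.18), and Creld2, a disulfide isomerase-like protein with EGF repeats, gave 1014 and 1109 (0.13).

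The disulfide isomerases, which form and reshuffle disulfide bonds, went different ways. Pdia6 (P5) gave 7630.3 in control cells and 10436 in 5ppase cells (log2 ratio 0.45), and Pdia4 (ERp72) gave 2182 and 2643 (0.28). Pdia3 (ERp57), the partner of calnexin and calreticulin, gave 10045 and 9070 (-0.15). Ero1a, the oxidase that recharges these enzymes, gave 776 and 750.4 (-0.049). Over the 15 chaperones and folding factors, 12 log2 ratios were positive, beside 48.6% of all measured genes. The 3 negative ones were those of Hspa5, Pdia3 and Ero1a, and the median was 0.13 with quartiles of 0.095 and 0.27. These signs are of the brightest probe sets. Dim probe sets of Pdia3 and Ero1a had positive ratios (0.59 and 1.18).

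All 6 listed genes of ER-associated degradation and the ER membrane had a higher signal in 5ppase, beside 48.6% of all measured genes. Sel1l, the adaptor of the ubiquitin ligase complex that draws misfolded proteins out of the ER, gave 221 in control cells and 387 in 5ppase cells (log2 ratio 0.80, 1.75-fold), the largest ratio of the 36 genes. Its partner, the ubiquitin ligase Syvn1 (HRD1), gave 957 and 978 (0.031). Within this complex the adaptor and the ligase thus had different ratios, and the Sel1l value came from 1 probe set below the bright range, where probe sets of a gene differ more. Edem1, a lectin-like protein that hands misfolded glycoproteins to degradation, gave 1105 and 1399.7 (0.34). Selenos, a selenoprotein of the retrotranslocation complex, gave 7053 and 8634 (0.29), and Herpud1, a stress-induced scaffold of that complex, gave 3484 and 4087.5 (0.23). Wfs1 (wolframin), a membrane protein of ER calcium balance, was dim, at 139 and 165 (0.24). The median of the 6 was 0.27. Other degradation genes, from a neighbouring list and named after their values were seen, went both ways. Derl1 (0.39), Edem2 (0.25), Vcp (0.10) and Ufd1 (0.03) were higher in 5ppase. Os9 (-0.37), Ubxn4 (-0.10), Erlec1 (-0.06), Derl2 (-0.03) and Npl4 (-0.03) were lower.

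The ATF4 targets are described by function, first amino acid supply and then stress feedback, a grouping made after their values were seen. The ratios of these groups overlapped. Phgdh, the first enzyme of serine synthesis, gave 1109 in control cells and 1648 in 5ppase cells (log2 ratio 0.57, 1.49-fold), just under the 1.5-fold line and over it under quantile normalization (0.59) and after removal of a loess trend (0.59). Asns, which makes asparagine, gave 3568 and 4669 (0.39), and Slc7a5, the light chain of the large neutral amino acid transporter, gave 777 and 1015 (0.38). These 3 lay beyond the probe set spread on the 5ppase side. The other 2 supply genes did not: Slc3a2, the heavy chain that pairs with Slc7a5, gave 13567 and 12969 (-0.065), and Psat1, the enzyme after Phgdh, gave 1906 and 1930.1 (0.018, but -0.013 with a common median).

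No feedback or stress gene among the ATF4 targets was higher in 5ppase by more than the probe set spread. Trib3, a pseudokinase that restrains ATF4 and AKT, gave 1138 in control cells and 901 in 5ppase cells (log2 ratio -0.34). Ppp1r15a (GADD34), the phosphatase subunit that reverses eIF2 phosphorylation, gave 1172 and 952 (-0.30). Those 2 were the lowest ratios of the 36 genes and lay beyond the probe set spread on the control side. Chac1, which degrades glutathione, gave 1098 and 1183.5 (0.11). Sesn2, an inhibitor of mTORC1 signalling, gave 1410 and 1563 (0.15), and the stress-induced chromatin protein Nupr1 gave 9975.5 and 9972 (-0.0005).

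**Figure D2:**
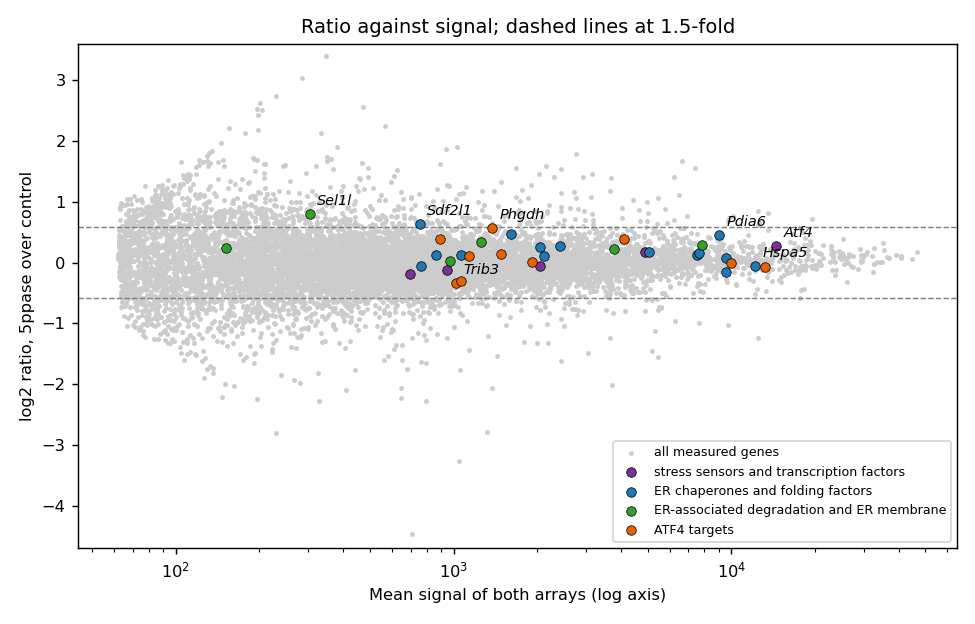
Each dot is a gene, with its mean signal on a log axis and its log2 ratio of 5ppase over control on the other, grey for the 10255 measured genes and coloured by role for the 36 described here; dashed lines mark 1.5-fold. Only Sel1l (0.80) and Sdf2l1 (0.64) lie beyond a dashed line, and Phgdh (0.57) lies just inside it.

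ER chaperones were then set against ATF4 targets. The 15 chaperones and folding factors had a median log2 ratio of 0.13 and the 10 ATF4 targets 0.063, a difference of -0.07. Its size depended on the probe sets: it was -0.21 when the probe sets of each gene were averaged, and -1.12 over second brightest probe sets, which only 4 chaperones and 2 ATF4 targets have above the floor. Of the ATF4 targets 6 were positive and 4 negative, against 12 and 3 for the chaperones. The ATF4 targets were the more scattered list, with quartiles of -0.049 and 0.33 and a range from -0.34 to 0.57, against -0.15 to 0.64. With Ddit3 counted among the ATF4 targets their median was 0.018 over 11 genes and the difference -0.12. Neighbouring lists, described below, had the opposite order. The median was 0.25 over 34 other ATF4 and amino acid response genes and 0.10 over 30 other ER folding genes. No test of the difference was possible with 1 array per group.

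**Figure D3:**
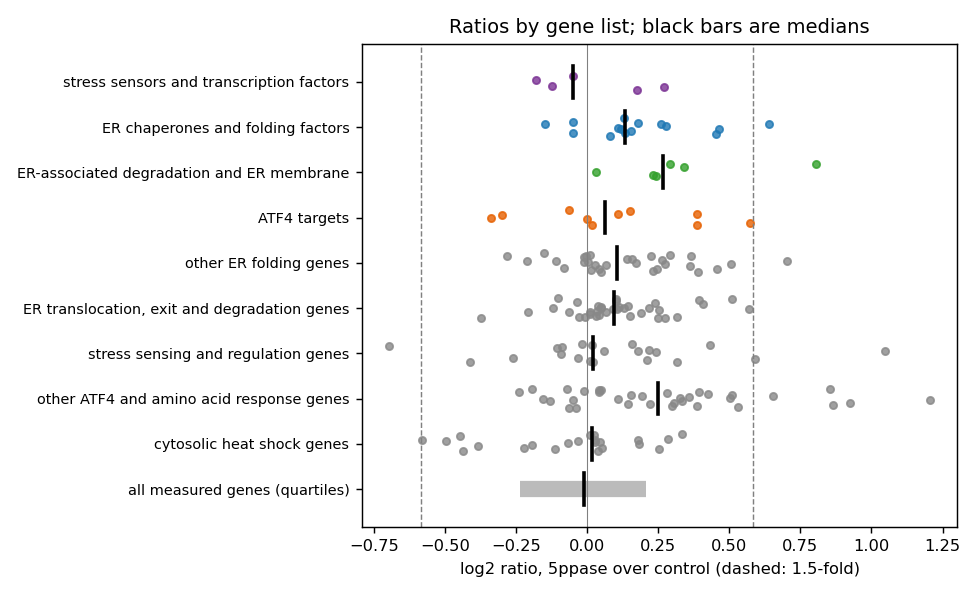
Log2 ratio of 5ppase over control for each measured gene of the 4 roles (coloured) and of 5 other lists (grey), with the median of each list as a black bar and the quartiles of all measured genes as a grey band. The chaperone and degradation lists sit to the right of 0 at medians of 0.13 and 0.27, whereas the sensor list is at -0.048.

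The promoter elements shown at the start did not sort the genes by ratio. The 7 genes with an ER stress element ran from -0.05 for Hspa5 to 0.46 for Dnajc3, with Calr, Creld2, Hsp90b1, Canx and Xbp1 between 0.08 and 0.18. Dnajb11, Herpud1 and Hyou1, with the ER stress element II, gave 0.26, 0.23 and 0.12. The 2 genes with the widest ratios, Sel1l and Sdf2l1, held none of the 4 searched elements in the window. The 3 ATF4 targets with the amino acid response core, Trib3, Chac1 and Nupr1, gave -0.34, 0.11 and -0.0005, while Phgdh, Asns and Slc7a5 held no match.

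Other probe sets were available for 8 of the genes, and they did not all give the same picture. Trib3 was lower in 5ppase at all 3 of its probe sets, at 1138 and 901, 1002 and 951, and 716 and 589 (log2 ratios -0.34, -0.074 and -0.28). Edem1 was higher at all 3 of its own, the dimmer ones giving 202 and 239.5 (0.25) and 80.5 and 125.6 (0.64). Calnexin's other probe sets gave 5144 and 5402 (0.07) and 1699.5 and 1648 (-0.045). Trib3 and Edem1 thus kept their direction at every probe set, whereas 1 calnexin probe set changed sign.

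Dim probe sets of 3 folding genes had larger ratios than the bright ones. Hyou1 gave 110.3 in control cells and 214 in 5ppase cells (log2 ratio 0.96) where its bright probe set gave 0.12. Ero1a gave 88.3 and 200.5 (1.18) against -0.049, and Pdia3 gave 192 and 289 (0.59) against -0.15. Sesn2 went the other way, at 95.6 and 50.6, the second under the floor (at least 1.54-fold lower). The second probe set of Atf6 passed the floor on neither array. Of the 10 other measured probe sets, 6 had the sign of the bright one and 5 were at least 1.5-fold apart. Which part of the message or which splice form each reads was not analysed here.

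**Figure D4:**
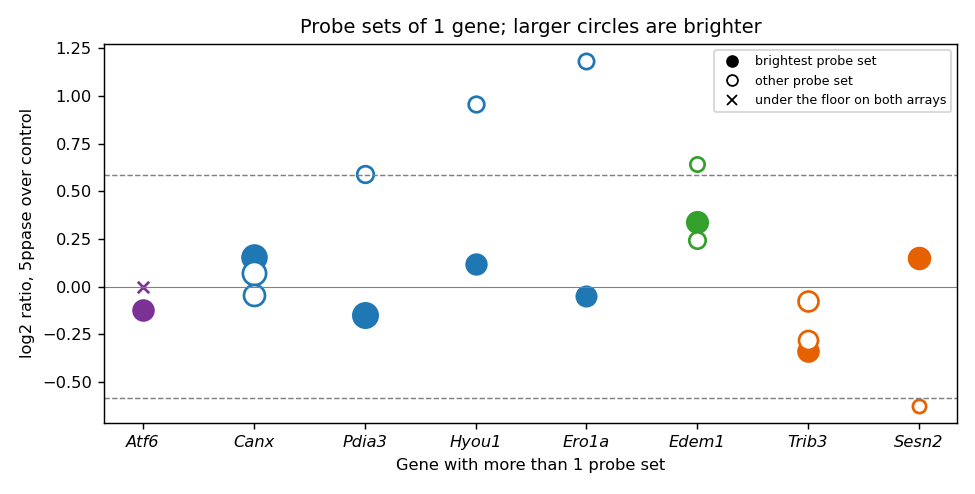
Log2 ratio of 5ppase over control for every probe set of the 8 genes that have more than 1, filled for the brightest and open for the others, with larger circles for brighter probe sets and dashed lines at 1.5-fold. The dim probe sets of Hyou1 (0.96) and Ero1a (1.18) stand apart from the bright ones (0.12 and -0.049), whereas those of Trib3 all lie below 0.

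Genes around these pathways, in lists that do not overlap the 37, were mostly within 1.5-fold as well. The stress sensing list and the other ATF4 list, described in the next paragraphs, also held ratios wider than any member, up to 1.05 and 1.21. Of 30 other ER folding genes, 1 was at least 1.5-fold higher and 0 lower: Pdia5, another disulfide isomerase, at 2419 in control cells and 3940.3 in 5ppase cells (log2 ratio 0.70). The list median was 0.10, with 22 positive. Over all measured genes 14.4% were at least 1.5-fold apart, or 6.84% of the bright ones, and 48.6% were positive. Of 36 measured genes of translocation into the ER, exit and degradation, 0 were 1.5-fold apart, with a median of 0.096 and 28 positive. Its brightest members, the signal peptidase subunit Spcs1 and the translocon subunit Sec61g, gave 0.048 and 0.13. The cytosolic heat shock genes, which answer unfolded protein outside the ER, had a median of 0.017. Of these 22 genes 12 were positive (54.5%), near the share over all measured genes, and 0 were at least 1.5-fold apart. Among them the small heat shock protein Cryab gave 28828 and 29868 (0.051) and the cytosolic Hsp90 gene Hsp90ab1 gave 13758 and 14194 (0.045, but -0.28 at its other probe set). The ratios of this list ran from -0.58 for Hspa1a to 0.33 for Dnajb4. Hspa1a gave 1681 and 1123, just under the 1.5-fold line. Hsf2 (-0.50), Hspa4l (-0.44) and Hsph1 (-0.38) were also among the 10 negative ratios. The genes of the last 3 sentences were named after their values were seen.

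Of the 21 measured genes of stress sensing and regulation, 2 were at least 1.5-fold higher and 1 lower, a share like the 14.4% of all measured genes. Stc2 (stanniocalcin-2), a secreted glycoprotein that ER stress induces, gave 664 in control cells and 1373 in 5ppase cells (log2 ratio 1.05). Atf6b, the paralogue of Atf6, gave 243 and 365 (0.59). Bcl2l11 (Bim), a cell death gene that CHOP induces, was the lower one, at 1256 and 775 (-0.70). The median of that list was 0.019. Stc2 thus had the widest ratio of this list. Atf3, a stress factor that ATF4 induces, was named after its values were seen and gave 91.2 and 91.9 (0.011).

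The other ATF4 and amino acid response genes had the highest median of the neighbouring lists, 0.25, with 25 of 34 positive beside 48.6% of measured genes. Of the 34, 5 were at least 1.5-fold higher, beside 7.48% of measured genes, and 0 lower, beside 6.87%. Aldh1l2, a mitochondrial enzyme of folate metabolism, gave 289 in control cells and 667 in 5ppase cells (log2 ratio 1.21). Eif4ebp1, the repressor of cap-dependent translation, gave 996 and 1890.2 (0.92), and the cystine transporter Slc7a11 gave 303 and 549 (0.86). The glycine transporter Slc6a9 gave 194 and 354 (0.87) but a log2 ratio of -0.011 at another probe set. The fifth was Psph, the last enzyme of serine synthesis, at 617 and 971 (0.66), named after its values were seen.

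Several lists of cell type markers differed between the arrays. Signals ran up to 43892 on the control and 49734 on the 5ppase array, with medians of 107 and 109. Of 11 measured astrocyte markers 8 were at least 1.5-fold lower in 5ppase, beside 6.87% of all measured genes, and 0 higher, beside 7.48%. Gfap was among the lower ones at 17525 and 7408, and the summed signal of the 13 on the array was 57068 and 34424. Of 7 measured neuron markers 2 were that much higher and 1 lower, and the summed signal of 15 on the array was 6981 and 13504, but 3215 and 2439 without Stmn2. The sum of 10 oligodendrocyte lineage markers was 3861 and 2245, or 2490 and 2197 without Cldn11, and the sum of 12 microglial markers was 1354 and 2624, or 276 and 352 without Tmem119, so 1 gene carried most of each of these differences. Of 4 measured oligodendrocyte lineage markers 1 was at least 1.5-fold higher and 2 lower, and of 3 microglial markers 1 was higher and 0 lower. Of 10 measured fibroblast and meningeal markers 0 were that much higher and 3 lower, and the sum of 12 was 147804 and 135155. Both of the 2 measured endothelial markers were that much higher, and the sum of 7 was 245 and 389. For 8 of 15 neuron and 5 of 10 oligodendrocyte lineage markers the signal passed the floor on neither array. The same held for 8 of 12 microglial, 5 of 7 endothelial, 1 of 13 astrocyte (Slc1a2) and 2 of 12 fibroblast and meningeal markers (Dcn and Lum). Those under it included Rbfox3, Snap25 and Syt1 of the neuronal list and Mog, Olig2 and Sox10 of the oligodendrocyte list. Itgam, Ptprc and C1qa of the microglial list and Pecam1, Kdr and Cldn5 of the endothelial list were under it too. Each list also held measured markers. The part of these differences in the ratios of the ER genes was not tested, and in such bulk RNA fewer cells of a type and less RNA per cell cannot be told apart.

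The position of the lists relative to all genes held when the arrays were scaled in other ways. The chaperone median ran from 0.10 with a common median to 0.15 with quantile normalization, and the median of the ATF4 targets from 0.033 to 0.079, while that of all measured genes ran from -0.042 to -0.0034. The common median shifts all genes alike, and it turned the sign of Psat1 alone among the members. Averaging the probe sets of each gene, which brings in the dim probe sets of Hyou1, Ero1a, Pdia3 and Sesn2, gave 0.22 and 0.0087.

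**Figure D5:**
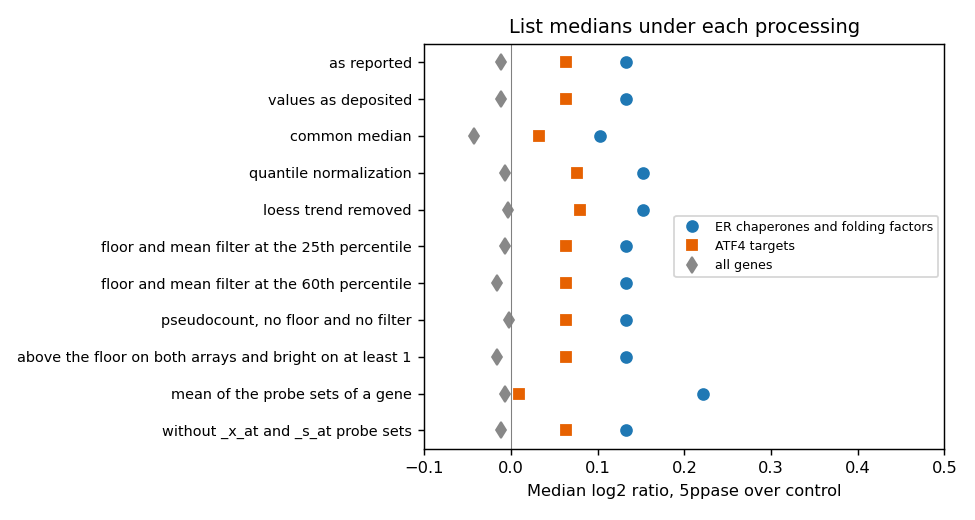
Median log2 ratio of 5ppase over control for the 15 chaperones and folding factors (circles), the 10 ATF4 targets (squares) and all genes that pass the filter (diamonds), for the reported processing and each alternative that keeps all 25 of these genes. The chaperone median stays to the right of the ATF4 targets in each, from 0.10 to 0.22. All use the same 25 genes and most the same probe sets, so the order had little room to change.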

How the data were processed

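Values came from 1 control and 1 5ppase array, grouped by title. The deposited values are linear signal intensities per probe set, made by the authors with MAS5 per the submitters' processing notes, and the sources used here state no version, settings or detection calls. Both arrays had a trimmed mean of 500.2 (2% off each end), so the common scaling used here changed nothing beyond rounding. Printed signals are as deposited. No column was left unused (0).

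Of 31099 probe sets, 20832 carried 1 gene symbol in the platform annotation, which can be old, 436 several and 9831 were not listed. Symbols were updated by gene identifier through a RefSeq table (20764 matched). A listed symbol not found on the array was matched by synonym. Hspa1b of the cytosolic heat shock list was thus read from a probe set that carries the symbol Hspa2 (log2 ratio -0.45). A gene was represented by the brightest of its probe sets (mean of both arrays), and counted as measured if that mean reached the pooled 40th percentile (62.0), to which lower signals were raised before log2, which understates ratios of dim genes. Above it lay 59.5% of probe sets in control and 60.4% in 5ppase. Ratios are log2 of 5ppase over control, and 1.5-fold was the line for counts. Loess used statsmodels 0.14.6 (span 0.3). The procedure was run on simulated data in which some bright genes were set 2-fold or more apart. No member was 2-fold apart, so that run does not show how well ratios as small as theirs are read.

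The members and lists were chosen with earlier results of these data known. Named genes were all members and, per neighbouring list, up to 4 genes at least 1.5-fold apart with the largest ratios or, if none, the 2 brightest; cell type markers are given by list. The comparison with bright genes (mean at or above the 75th percentile, 533) was added after the data were seen. Alternatives were other scalings, floors at the 25th (28.6) and 60th (208) percentiles, a pseudocount (6.4) with no floor or filter, a filter on both arrays, other choices of probe set, a 2-fold line, and Ddit3 as an ATF4 target.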

Additional observations from a re-analysis of the deposited data

How the results depend on the processing

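No paired analysis was possible because each group was 1 array, and no replicate could be left out. Some alternatives could show little: most members are bright, so floors, filters and a pseudocount hardly bear on them, the deposited values are nearly those reported, and a common median shifts all genes alike. The scalings that could differ by gene, quantile normalization and loess, moved no member by more than the probe set spread of 0.19. Other choices of probe set moved 9 member values by more, 4 when the probe sets of a gene were averaged and 5 with the second brightest, where Ero1a (1.18), Pdia3 (0.59) and Sesn2 (-0.62) changed sign to at least 1.5-fold. Sel1l and Sdf2l1 have 1 probe set each and had no such check. With averaged probe sets the chaperone median was 0.22 and the difference of the medians -0.21, through dim probe sets of Hyou1, Ero1a, Pdia3 and Sesn2. Second brightest probe sets exist above the floor for only 7 members, and gave a chaperone median of 0.77 over 4 genes, an ATF4 target median of -0.35 over 2, a difference of -1.12, and 1 member (Sesn2) at least 1.5-fold lower. With Ddit3 among the ATF4 targets the difference was -0.12. At a 2-fold line 0 members were higher. The number of members at least 1.5-fold higher was 3 with quantile normalization, with the loess trend removed and with second probe sets, and 2 under the other alternatives at that line. Signals near the floor limit the dim probe sets, and with 1 array per group no setting supplies a replicate.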

Other observations

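Some genes outside the 37 also hold an ER stress element in the RefSeq promoter window, and their signals went both ways. Of 21 genes with the element 16 were measured, 7 of them members. Over these 16, members included, 11 log2 ratios were positive, beside 48.6% of all measured genes, and the median was 0.12. All of the members but Hspa5 were positive. Of the genes outside the 37, Birc5, Calr4, Ero1b, Hnrnpa3 and Zfp57 were positive. Ankmy2, Pan2, Ppm1l and Zfand2a, also outside the 37, were negative. The values that follow were chosen after they were seen. The survival and mitosis gene Birc5 gave 44.4, under the floor, in control and 138.7 in 5ppase (at least 2.24-fold higher), Pan2, a deadenylase subunit, gave 356 and 187 (-0.93), and the phosphatase Ppm1l gave 956 and 611 (-0.64). The oxidase Ero1b, paralogue of Ero1a, gave 305 and 373 (0.29). All of the genes with the element that were at least 1.5-fold apart, 3 of 16, were thus outside the 37, beside 14.4% of measured genes.

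The 12 aminoacyl-tRNA synthetases in the amino acid response list, a subset picked out after the values were seen, had a median log2 ratio of 0.21. Of these 10 were positive and 2 negative, beside 48.6% positive over measured genes, and 0 were at least 1.5-fold apart, beside 14.4%. The tyrosine enzyme Yars1 had the highest, at 1146 in control and 1632 in 5ppase (0.51), and the alanine enzyme Aars1 the lowest, at 4830.2 and 4334 (-0.16).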
